A study of Mus musculus with 6 samples.

Results

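The colony-stimulating factors and their receptors are 8 genes chosen by symbol: the ligands Csf1, Il34, Csf2 and Csf3, and the receptor genes Csf1r, Csf2ra, Csf2rb and Csf3r. Values of 7 of the 8 were used and Csf2 was not analysed here. Of these 7, 6 passed the filter on low counts and were tested among 13733 genes, out of 20071 Ensembl IDs in all. The samples were mesenchymal stem cells (MSCs) from the femurs of 6-week-old C57BL/6J mice, with 3 libraries from Pcif1fl/fl mice (controls, labelled WT) and 3 from their Prrx1-Cre;Pcif1fl/fl littermates (knockout, labelled CKO). Both genotypes carried the floxed Pcif1 allele and differed by the Cre transgene, and all cells had been kept for 7 days in osteogenic medium, in which dexamethasone was at 100 nM, β-glycerophosphate at 5 mM and ascorbic acid at 50 μg/mL. PCIF1 is the enzyme that methylates an adenosine next to the mRNA cap, and the comparison asks which transcripts differ when it is removed from the mesenchymal lineage. Prrx1-Cre is driven by a promoter of limb mesenchyme, so blood-derived cells in such a culture are not its intended target. In which cells the deletion took place was not measured here. The series' design text speaks of biological duplicates whereas the labels give 3 libraries per genotype, and nothing in them says that these came from separate mice, so the p-values measure the spread between these libraries, which may be technical.

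Colony-stimulating factors are secreted proteins that keep myeloid cells alive and drive their division and maturation. CSF1 (M-CSF) and IL-34 bind the same receptor tyrosine kinase, CSF1R, which macrophages need and which, together with RANKL, is needed to form osteoclasts, and stromal cells and osteoblasts are known sources of CSF1 in bone. CSF2 (GM-CSF) binds an α chain, CSF2RA, which signals through the common β chain CSF2RB that the receptors for IL-3 and IL-5 share, whereas CSF3 (G-CSF) acts through CSF3R and drives neutrophil production.

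The libraries held 20258209 to 28227696 counts. Levels are given as CPM, the read count relative to the library size scaled by the trimmed mean of M values (TMM), and a gene was called at a Benjamini-Hochberg adjusted p under 0.05 in the quasi-likelihood test of edgeR. Pcif1 itself stood at 39.3 to 42.8 CPM in the control libraries and 37.8 to 39.7 CPM in the knockout libraries (log2 fold change -0.09, SE 0.09, adjusted p = 0.645). Its counts cover the whole gene, part of which (16.9% of the exonic bases) lies opposite Zfp335, and they were not split by exon. Whether the targeted exons were lost, and in which cells, was not tested. Control replicate 3 stood apart from the other libraries, with 3.63% mitochondrial counts against 1.40% to 1.57% in the other 5, and calls of the 6 tested genes that change without it are given both ways. Xist ranged from 232 to 443 CPM in the control libraries and from 0.722 to 1.79 CPM in the knockout libraries, and Ddx3y, Eif2s3y, Kdm5d and Uty, which are Y-linked, were lower in each control library than in any knockout library. The mix of sexes and the genotype therefore cannot be told apart. The summed level of 22 macrophage markers was 38595 to 41432 CPM in the control libraries and 40388 to 43818 CPM in the knockout libraries, and that of 12 mesenchymal markers was 9415 to 12442 CPM and 14993 to 16158 CPM. Without the 3 collagen genes, the other 9 mesenchymal markers summed to 739 to 871 CPM in the controls and 712 to 734 CPM in the knockout libraries, so that this sum was lower in each knockout library. The cultures labelled as MSCs thus held both kinds of RNA, and for every gene below fewer cells of a type and less RNA per cell cannot be told apart in bulk samples.

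Csf1 and Csf2ra rose in the knockout libraries, by 1.58-fold and 1.35-fold. These were 2 of the 6 tested genes, where 2.88% of all 13733 genes were called higher. None of the 6 was called lower by edgeR, DESeq2 or limma-voom, where 4.51% of all genes were called lower by edgeR, and 1 of the 6, Csf1r, was lower at an unadjusted p under 0.05 with each tool. None met the study's joint thresholds of an adjusted p under 0.05 and a log2 fold change of 1 or more in either direction, which 3.53% of all genes met. These shares depended on the libraries: without control replicate 3, 11.1% of the genes tested were called higher and 10.4% lower by edgeR, and without any other single library 1.06% to 2.1% were called higher and 2.32% to 3.49% lower. The genotypes were fully separate, with no library of either inside the range of the other, for 3 of the 6 genes, Csf1 and Csf2ra (higher) and Csf1r (lower), while 30.8% of all genes were separate in this way. The median log2 fold change of the 6 was 0.12, beside 0.0017 over all genes tested, and it was 0.06 without control replicate 1, 0.21 without control replicate 3 and 0.05 without knockout replicate 2.

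PCIF1 acts on mRNAs whose first transcribed base is an adenosine, and the bases around the annotated start are therefore shown for 4 genes with an entry in the RefSeq promoter table (GRCm38.p6). Each line runs from 20 bases before the start to 9 after it, on the strand of the gene, with the first transcribed base in capitals. They lie at chr3:107760460-107760489 (minus strand) for Csf1, chr19:61228409-61228438 (minus strand) for Csf2ra, chr4:126024639-126024668 (plus strand) for Csf3r and chr15:78305712-78305741 (minus strand) for Csf2rb2, the paralog of Csf2rb.
Csf1: tttgaggaggctgcacagccAcagagcgac
Csf2ra: gcagatgaggaagaggaagcGggagacaga
Csf3r: aggaaggtgtcgcaattctgGgtccccccc
Csf2rb2: cacaattctgagaagcaagcAaagctgctt
Csf1 and Csf2rb2 have an A at the annotated first base, while Csf2ra and Csf3r have a G. Of all 32851 promoters in that table, 34.4% have an A there. The counts do not show which start each cell used or whether the base was methylated. Il34, Csf3 and Csf2rb had no entry, and no sequence is shown for Csf1r.

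Csf1 (ENSMUSG00000014599, chromosome 3, 107741048 to 107760469, minus strand, mm10), the main ligand of CSF1R, had the largest change among the 6 tested genes. Its level was 398, 365 and 407 CPM in control replicates 1, 2 and 3, from 9108 to 11350 reads. In knockout replicates 1, 2 and 3 it was 629, 599.7 and 613 CPM, from 12049 to 13978 reads. Every knockout library was above every control library, and the gap between the groups was several times the spread within either. The means were 389.8 ± 22.3 and 614 ± 14.8 CPM (SD, n = 3), which gave 0.66 as the log2 fold change (SE 0.09, 95% interval 0.46 to 0.85, adjusted p = 0.00277). The call held in each of 13 alternative analyses, with log2 fold changes of 0.61 to 0.69 and adjusted p between 4.1e-09 and 0.0284. No annotated gene overlaps its exons.

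Il34 (ENSMUSG00000031750, chromosome 8, 110741829 to 110805924, minus strand), which encodes the other CSF1R ligand, did not pass the test. It stood at 25.9, 23.6 and 16.4 CPM in control replicates 1, 2 and 3, and at 21.5, 19.96 and 19.1 CPM in knockout replicates 1, 2 and 3. Control replicate 3 was the lowest of the 6 libraries, control replicates 1 and 2 were the highest, so that the genotypes were not separate. Its log2 fold change was -0.12 (SE 0.17, 95% interval -0.51 to 0.28, adjusted p = 0.736). Without control replicate 3 it was -0.29 (adjusted p = 0.0435), and without control replicate 1 it was 0.017 (adjusted p = 0.962). Of its exonic bases, 4.95% lie opposite the annotated genes Gm15894 and Gm15895.

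Csf1r (ENSMUSG00000024621, chromosome 18, 61100598 to 61132149, plus strand), the receptor of both ligands and a defining gene of macrophages, was lower in each knockout library than in any control library but missed the adjusted threshold. The controls had 1244, 1175 and 1089.9 CPM, from 28478 to 31958 reads. The knockout libraries had 1002, 992 and 940.5 CPM, from 19548 to 22252 reads. The lowest control library and the highest knockout library were closer to each other than the lowest and highest control libraries were. Mean levels were 1169 ± 77.1 and 978 ± 33.0 CPM (SD, n = 3), and the log2 fold change was -0.26 (SE 0.09, 95% interval -0.46 to -0.05, adjusted p = 0.141). Without control replicate 3 the gene was called (log2 fold change -0.30, adjusted p = 0.00157), which was so in 1 of 13 alternatives. Hmgxb3 lies opposite 15.1% of its exonic bases, and the counting is not stated to have used strand.

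**Figure D1:**
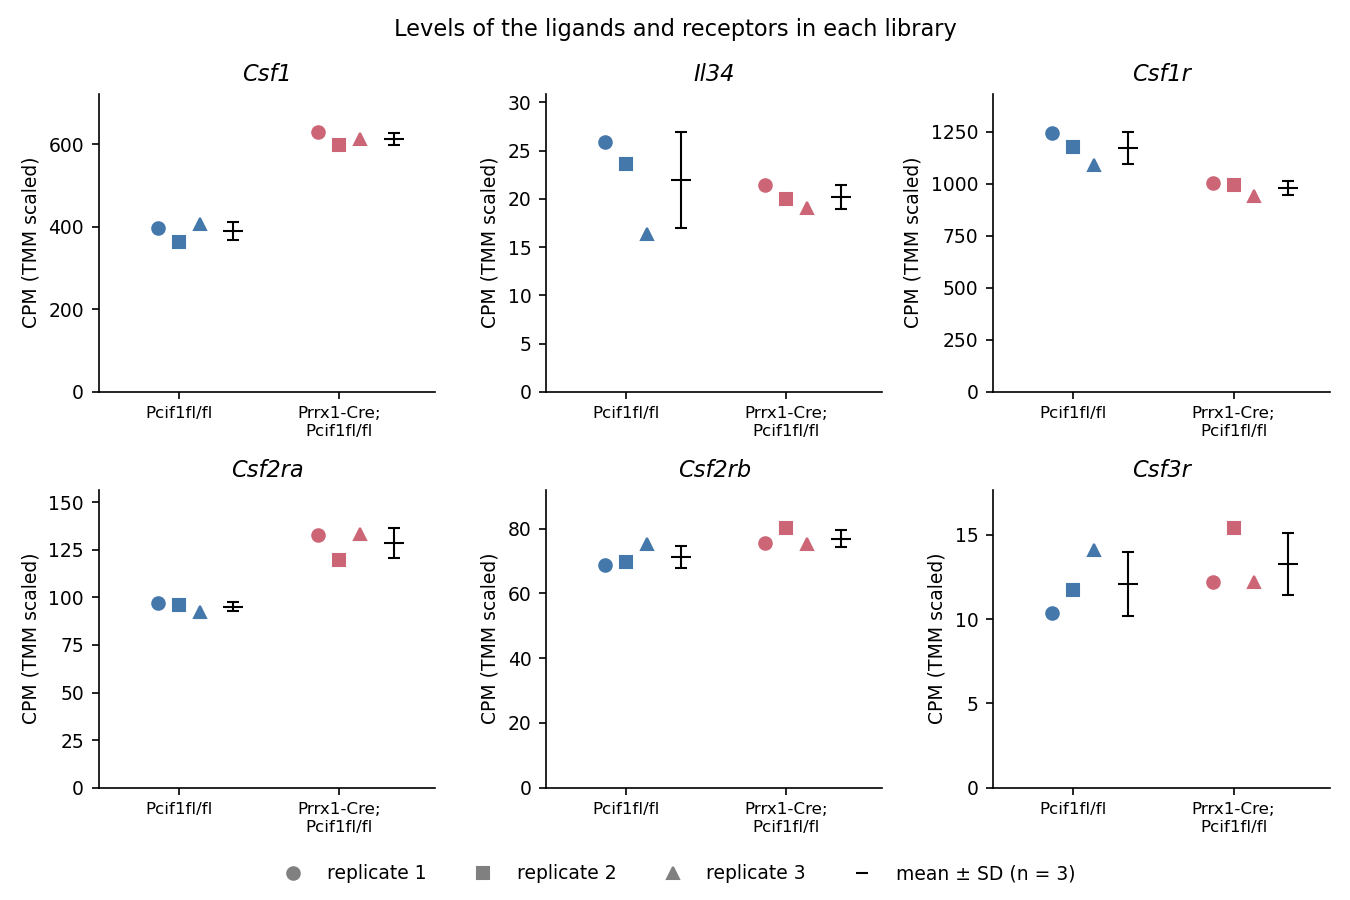
Level of each ligand and receptor gene (vertical axis, CPM scaled by TMM, starting at 0) in the 3 Pcif1fl/fl and 3 Prrx1-Cre;Pcif1fl/fl libraries, with marker shapes for replicates and bars for mean ± SD (n = 3). Csf1 and Csf2ra are higher and Csf1r is lower in each knockout library than in any control library, while Il34, Csf2rb and Csf3r overlap.

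Csf2ra (ENSMUSG00000059326, chromosome 19, 61223957 to 61228429, minus strand), the ligand-specific chain of the GM-CSF receptor, was the other gene that rose. Control libraries had 97.0, 95.8 and 92.5 CPM, from 2221 to 2606 reads. Knockout libraries had 133, 119.8 and 133 CPM, from 2406 to 2952 reads. The 3 controls lay close together, knockout replicate 2 was the lowest of its group, and the groups did not overlap. From 95.1 ± 2.35 to 129 ± 7.65 CPM (SD, n = 3), the log2 fold change was 0.44 (SE 0.09, 95% interval 0.24 to 0.63, adjusted p = 0.0191). The call was less firm than that of Csf1. It held in 9 of 13 alternatives, in which the log2 fold change ran from 0.41 to 0.49, and was lost without control replicate 2 (adjusted p = 0.0697), knockout replicate 1 (adjusted p = 0.127) or knockout replicate 3 (adjusted p = 0.124). Dendritic cells, which also use this receptor, were followed by 7 markers that summed to 9.83 to 13.1 CPM in the controls and 14.8 to 19.9 CPM in the knockout libraries, with Flt3, Ccr7 and Siglech at no more than 6 reads in any library. Of the 2 that could be tested, Itgax (CD11c) was called higher (log2 fold change 1.06, adjusted p = 0.0185) and Zbtb46 lower (log2 fold change -1.31, adjusted p = 0.0414). Itgax made up most of the sum, with means of 7.94 CPM in the controls and 16.6 CPM in the knockout libraries, against 2.70 and 1.09 CPM for Zbtb46. The call of Itgax was lost without control replicate 1 or 2 or knockout replicate 1 or 3 (adjusted p 0.0605 to 0.0928), and that of Zbtb46 without any library other than control replicate 3 (adjusted p 0.0666 to 0.119). The part of such cells in the difference of Csf2ra was not tested.

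The common β chain did not pass the test. Csf2rb (ENSMUSG00000071713, chromosome 15, 78325752 to 78353847, plus strand) stood at 68.8, 69.6 and 75.1 CPM in the control libraries and at 75.5, 80.04 and 75.1 CPM in the knockout libraries. Control replicate 3 was marginally above knockout replicate 3, so the ranges met, and the log2 fold change was 0.11 (SE 0.09, 95% interval -0.09 to 0.31, adjusted p = 0.519). Csf2rb2 (ENSMUSG00000071714, chromosome 15, 78282507 to 78305721, minus strand) encodes the IL-3-specific β chain of the mouse, and its sequence is close enough to that of Csf2rb for reads to be split between them. It stood at 39.3, 43.4 and 57.4 CPM in the controls and 49.2, 47.6 and 53.4 CPM in the knockout libraries. Control replicate 3 was the highest and control replicate 1 the lowest of all 6, and the log2 fold change was 0.10 (SE 0.15, adjusted p = 0.743). Without control replicate 3 it was 0.28 (adjusted p = 0.0246), and without control replicate 1 it was -0.0080 (adjusted p = 0.977). With the reads of both genes added together, the log2 fold change of the β chains was 0.11 (adjusted p = 0.589).

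Csf3 (ENSMUSG00000038067, chromosome 11, 98701263 to 98703629, plus strand), which encodes G-CSF, was at the limit of detection. A single read was counted in control replicate 3 and 0 in the other 5 libraries, where 3 counts, the limit that a count of 0 allows, correspond to 0.113 to 0.148 CPM. That limit covers counting error only, and no fold is given. Its receptor gene Csf3r (ENSMUSG00000028859, chromosome 4, 126024550 to 126044440, plus strand) was present at 10.4, 11.7 and 14.1 CPM in the controls and 12.2, 15.4 and 12.2 CPM in the knockout libraries, from 237 to 394 reads. The groups overlapped over most of their range. The log2 fold change of Csf3r was 0.13 (SE 0.16, 95% interval -0.24 to 0.51, adjusted p = 0.686), and no alternative called it, although the log2 fold change was 0.26 without control replicate 3, 0.04 without control replicate 1 and 0.02 without knockout replicate 2. Neutrophil markers were low beside it. Ly6g, Mpo and Ngp had at most 2 reads in any library, Mmp8, the most abundant, had at most 121, and the 10 granulocyte markers other than Csf3r summed to 4.89 to 5.84 CPM in the controls and 5.45 to 7.22 CPM in the knockout libraries. Of the 4 that could be tested, S100a8, a calcium-binding protein of neutrophils and monocytes, was called higher, with 14, 8 and 14 reads in the controls and 31, 27 and 23 reads in the knockout libraries (log2 fold change 1.45, adjusted p = 0.0394). That call was lost without any library other than control replicate 3 (adjusted p 0.0557 to 0.161). The median log2 fold change of the 4 was -0.13, and Prtn3 (-1.56), Camp (-0.59) and Mmp8 (0.33) were not called. The part of such cells in the values of Csf3r was not tested.

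**Figure D2:**
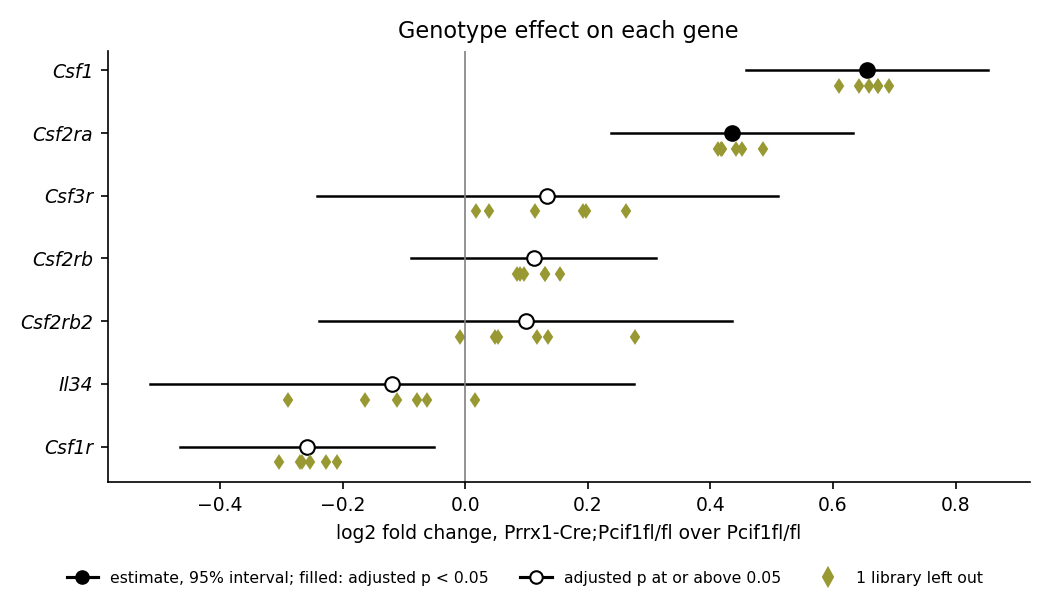
Log2 fold change (knockout over control, horizontal axis) of the 6 tested genes and Csf2rb2 with the 95% interval, filled where the adjusted p was under 0.05, and diamonds for fits without 1 library each. The diamonds of Csf1 run from 0.61 to 0.69, those of Csf2ra from 0.41 to 0.49 and those of Csf1r from -0.30 to -0.21, while those of Il34 and Csf2rb2 lie on both sides of 0.

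The genes differed widely in level, which was compared between genes only after division by exonic length. In the control libraries Csf1r was the highest at 203 ± 13.4 CPM per kb, followed by Csf1 at 73.8 ± 4.23 and Csf2ra at 33.1 ± 0.817 CPM per kb (SD, n = 3). Next came Il34 at 11.2 ± 2.53, Csf2rb2 at 9.85 ± 2.01 and Csf2rb at 9.78 ± 0.476 CPM per kb, which did not differ from each other beyond their spread. Csf3r was the lowest that could be measured, at 3.34 ± 0.530 CPM per kb. In the knockout libraries the order of the first 3 was the same, with Csf1r at 169 ± 5.71, Csf1 at 116 ± 2.80 and Csf2ra at 44.8 ± 2.66 CPM per kb. Csf2rb (10.6 ± 0.376), Csf2rb2 (10.6 ± 0.629) and Il34 (10.3 ± 0.624 CPM per kb) again lay within each other's spread, above Csf3r at 3.68 ± 0.507 CPM per kb.

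**Figure D3:**
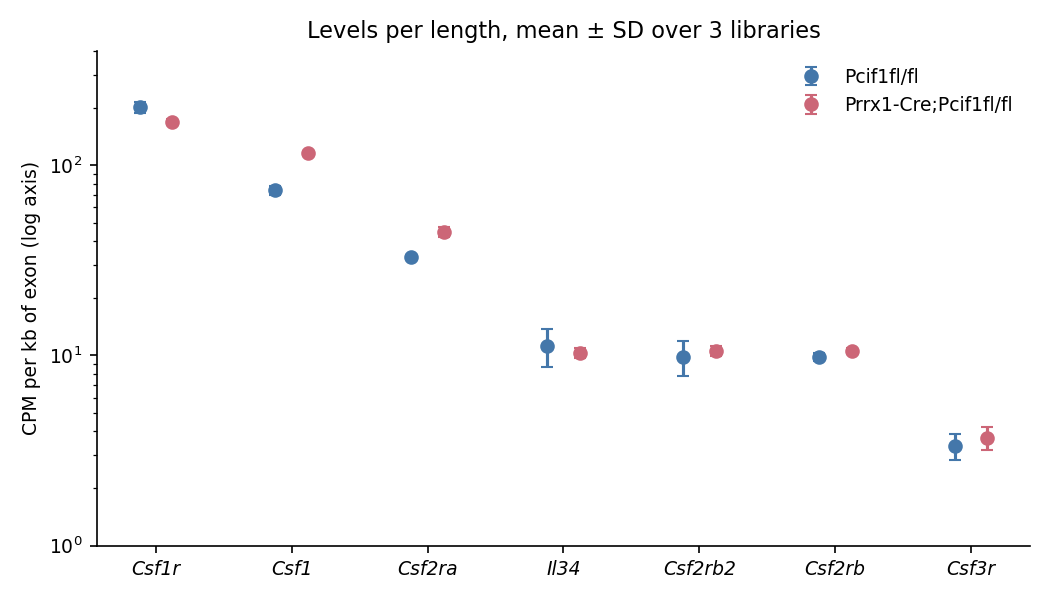
Level per kb of exon (vertical log axis, CPM per kb) of each gene in the 2 genotypes, as mean ± SD over 3 libraries. Csf1r, Csf1 and Csf2ra are separate in that order in both genotypes, from 203 down to 33.1 CPM per kb in the controls, whereas Il34, Csf2rb2 and Csf2rb lie together near 10 and Csf3r lies below them.

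Ratios within a library do not depend on how the libraries are scaled. The level of Csf1 relative to Csf1r per kb was 0.3497, 0.339 and 0.408 in control replicates 1, 2 and 3, and 0.687, 0.661 and 0.712 in knockout replicates 1, 2 and 3. The ligand thus stood closer to its receptor in every knockout library, with means of 0.366 ± 0.0372 and 0.687 ± 0.0258 (SD, n = 3). Csf1 exceeded Il34 5.71, 5.74 and 9.23 times per kb in the controls and 10.9, 11.1 and 11.9 times in the knockout libraries, again without overlap, and control replicate 3 was nearest to the knockout group. Within the GM-CSF receptor, Csf2ra exceeded Csf2rb 3.58, 3.49 and 3.12 times per kb in the controls and 4.46, 3.79 and 4.49 times in the knockout libraries. An exact two-sided permutation test of 3 against 3 libraries cannot give a p below 0.1, so no ratio could pass 0.05 by that test, and the ratios are given as values.

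Since Csf1r, Csf2ra and Csf2rb are transcribed mainly in myeloid cells, they were also set against the 22 other macrophage markers. Of these 22, 9 were higher in each knockout library than in any control library and 0 were lower in this way, beside the 30.8% of all genes that were separate in either direction (2066 higher and 2162 lower of 13733). By the test, 2 were called higher (Fcgr1 and Cx3cr1, a high-affinity antibody receptor and the fractalkine receptor) and 0 lower by edgeR and by limma-voom, DESeq2 called 6 higher and 0 lower, and their median log2 fold change was 0.19. Of all genes tested, edgeR called 2.88% higher and 4.51% lower. Fcgr1 rose from 37.0 ± 5.32 to 68.4 ± 7.90 CPM (SD, n = 3, adjusted p = 0.00605) and was called in all 13 alternatives, whereas the call of Cx3cr1 (log2 fold change 1.24, adjusted p = 0.0293) was lost without control replicate 1 or 2 or knockout replicate 1 or 2 (adjusted p 0.0742 to 0.116). Per 1000 CPM of those markers, Csf1r had 30.0, 28.5 and 28.2 CPM in the controls and 22.9, 24.5 and 23.3 CPM in the knockout libraries. Csf1r was therefore lower relative to that sum in each knockout library, at 28.9 ± 0.973 against 23.5 ± 0.826 (SD, n = 3). Lyz2, the lysozyme of myeloid cells, made up 54.2% to 61.2% of the sum in each library. The sum of all 22 overlapped between the genotypes, whereas that of the 21 others was 15828 to 16478 CPM in the controls and 16900.0 to 18604 CPM in the knockout libraries, without overlap. Against these 21 markers, an alternative added after the values were seen, Csf1r had 75.5, 73.2 and 68.9 CPM per 1000 CPM in the controls and 57.0, 53.3 and 55.6 in the knockout libraries, also without overlap. Csf2ra had 2.34, 2.32 and 2.40 CPM per 1000 CPM of the markers in the controls and 3.03, 2.95 and 3.30 in the knockout libraries, which did not overlap with or without Lyz2 in the sum. Csf2rb overlapped on both scales, with 1.66 to 1.95 in the controls and 1.72 to 1.97 in the knockout libraries when Lyz2 was included. Relative to Csf1r per kb, Csf2ra was 0.164 ± 0.00689 in the controls and 0.265 ± 0.0211 in the knockout libraries (SD, n = 3).

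**Figure D4:**
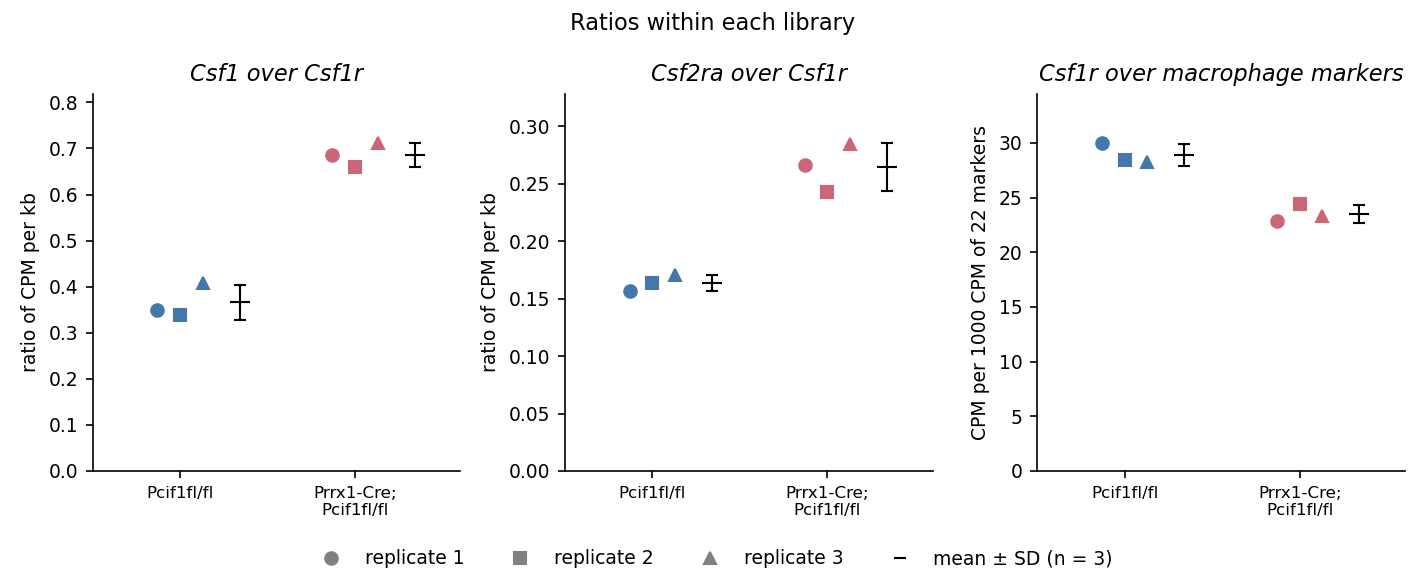
Ratios within each library, with marker shapes for replicates and bars for mean ± SD (n = 3): Csf1 over Csf1r and Csf2ra over Csf1r (CPM per kb each), and Csf1r per 1000 CPM of 22 macrophage markers. Csf1 over Csf1r is 0.339 to 0.408 in the controls and 0.661 to 0.712 in the knockout libraries, and the other panels do not overlap between genotypes either.

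Csf1, which stromal cells transcribe, was set against the 12 mesenchymal markers. Per 1000 CPM of the whole list Csf1 stood at 32.0, 31.6 and 43.2 CPM in the controls and 38.9, 40.0 and 38.5 CPM in the knockout libraries, and the groups overlapped. Most of that sum was collagen mRNA, and Col1a1 and Col1a2 were both called higher in the knockout libraries. Against the 9 markers that are not collagen genes, a set chosen after the values were seen, Csf1 stood at 499.8, 493 and 467 CPM in the controls and 884, 820.2 and 835 CPM in the knockout libraries, which did not overlap. The sum of these 9 was itself lower in each knockout library, as given above. Of the 11 mesenchymal markers tested, 3 were called lower (Eng, Vcam1 and Pdgfra) and 3 higher (Thy1, Col1a1 and Col1a2). Eng was called in all 13 alternatives, while the other 5 calls were each lost without knockout replicate 1 (adjusted p 0.0515 to 0.145). Each of these 5 was also lost without at least 1 other library. Among 9 osteoblast markers tested, 3 were called lower (Sp7, Alpl and Ibsp) and 0 higher by edgeR, DESeq2 and limma-voom, with 0 higher at an unadjusted p under 0.05. The others were not called and went both ways, with Spp1 at 0.43, Dmp1 at 0.48, Sparc at 0.09, Col11a2 at 0.07, Runx2 at -0.41 and Phex at -0.86. The 10 listed osteoblast markers summed to 12289 to 19930 CPM in the controls and 14548 to 22794 CPM in the knockout libraries, which overlapped. Over all genes tested, edgeR called 4.51% lower and 2.88% higher, the shares to set beside the counts of both lists. Endothelial markers summed to 32.9 to 45.7 CPM in the controls and 30.7 to 37.5 CPM in the knockout libraries. The part of the mesenchymal, macrophage or sex composition in the difference of Csf1 was not tested.

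Of the partners of these receptors and the ligands that share them, 7 were tested and 0 were called in either direction by edgeR, DESeq2 or limma-voom, nor did any reach an unadjusted p under 0.05. Il3ra, the IL-3 receptor α chain that pairs with the β chains, was 20.2 CPM in the controls and 16.4 CPM in the knockout libraries (log2 fold change -0.30, adjusted p = 0.278). Ptprz1 and Sdc1, which encode further binding proteins of IL-34, had log2 fold changes of 0.57 and -0.05, the former at under 1 CPM. Trem2 and its adaptor Tyrobp, which cooperates with CSF1R signaling in macrophages, had log2 fold changes of 0.24 and 0.26. Adam17, the protease that sheds membrane-bound CSF1 and CSF1R, stood at 148 CPM in both genotypes.

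Among 30 signal transducers downstream of the receptors, 1 was called lower and 1 higher, and their median log2 fold change was -0.01 (0.04 without control replicate 3). Over all genes tested, edgeR called 4.51% lower and 2.88% higher. Pik3r1, a regulatory subunit of PI3-kinase, fell from 365 ± 50.0 to 236 ± 17.0 CPM (SD, n = 3, log2 fold change -0.63, adjusted p = 0.0149). Its call was lost without knockout replicate 1 or 3 (adjusted p = 0.0937 each). Fgr, a Src-family kinase of myeloid cells, rose from 1.75 ± 0.615 to 4.34 ± 0.798 CPM (log2 fold change 1.30, adjusted p = 0.0277), and that call was lost without control replicate 1 (adjusted p = 0.0805) or without knockout replicate 1, 2 or 3 (0.0530, 0.123 and 0.116). The tyrosine kinase Jak2 and the transcription factors Stat5a and Stat5b, which carry the GM-CSF signal, had log2 fold changes of 0.08, -0.34 and -0.10 and were not called.

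Among 14 feedback inhibitors of these receptors, 2 were called higher and 0 lower by edgeR, DESeq2 and limma-voom, with 1 lower at an unadjusted p under 0.05. The shares over all genes tested were 2.88% higher and 4.51% lower in edgeR. Socs2, an inhibitor of cytokine receptors that STAT5 induces, was 7.12, 7.31 and 6.81 CPM in the controls and 14.4, 12.5 and 12.8 CPM in the knockout libraries. The groups were far apart, and the log2 fold change of 0.90 (SE 0.13, adjusted p = 0.00422) was called in all 13 alternatives. Dok2, a docking protein that dampens signaling in myeloid cells, rose from 14.8 ± 4.24 to 31.9 ± 3.18 CPM (log2 fold change 1.11, adjusted p = 0.0149), a call lost without control replicate 2 (adjusted p = 0.0518), knockout replicate 1 (0.0657) or knockout replicate 2 (0.0808). Cish, another STAT5 target, was 1.71 and 0.884 CPM and was not called (adjusted p = 0.0963). The median log2 fold change of the list was 0.16.

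Transcription factors of the myeloid response to these ligands gave 3 genes called higher and 0 lower of 14 by edgeR and limma-voom, and 4 higher and 0 lower of 16 by DESeq2. At an unadjusted p under 0.05, 0 were lower in edgeR and 1 was lower in DESeq2 and in limma-voom. Of all genes tested, edgeR called 2.88% higher and 4.51% lower at the adjusted threshold. Egr2, an immediate early gene of the CSF1 response, was 2.80, 2.46 and 2.80 CPM in the controls and 11.2, 7.67 and 12.5 CPM in the knockout libraries. It had the strongest change of the 3 called genes, with a log2 fold change of 1.96 (SE 0.21, adjusted p = 0.00111) that was called in all 13 alternatives. Fos and Fosl1, subunits of AP-1, had log2 fold changes of 0.81 (adjusted p = 0.0191) and 0.96 (adjusted p = 0.0349), and both calls were lost without control replicate 1 or 2 or knockout replicate 1 or 3 (adjusted p 0.0501 to 0.0996 for Fos and 0.0893 to 0.160 for Fosl1). Fosl1 lies opposite Ccdc85b over 57.2% of its exonic bases. Spi1, the factor that drives Csf1r and Csf2ra transcription in myeloid cells, had a log2 fold change of -0.18 (adjusted p = 0.435), and Cebpa one of -0.19 (adjusted p = 0.595).

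**Figure D5:**
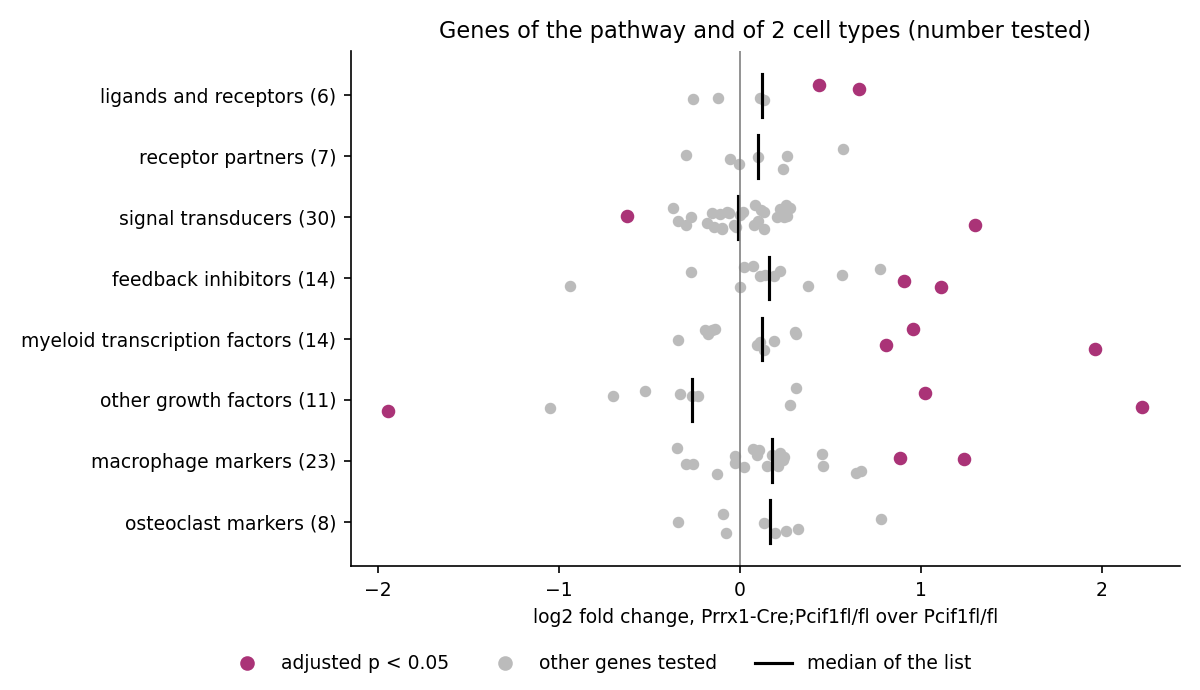
Log2 fold change (knockout over control, horizontal axis) of each tested gene in the pathway lists and in the macrophage and osteoclast marker lists, coloured where the adjusted p was under 0.05, with a bar at the median of each list. Most genes lie near 0, the receptor partners and osteoclast markers hold no coloured point, and Ccl2 at 2.22 and Kitl at -1.94 are the outermost points.

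Csf1 was not the only secreted factor for blood cells that differed. Of 11 other growth factors and chemokines tested, edgeR and limma-voom called 2 higher and 1 lower and DESeq2, which took in 13 of the list, called 2 higher and 3 lower, and the median log2 fold change in edgeR was -0.26, which became -0.13 without control replicate 3 and -0.37 without control replicate 2. Over all genes tested, 2.88% were called higher and 4.51% lower by edgeR. Ccl2, the chemokine that attracts monocytes, was 13.5, 12.1 and 10.7 CPM in the controls and 58.3, 55.2 and 55.9 CPM in the knockout libraries (log2 fold change 2.22, SE 0.12, adjusted p = 5.2e-05). Kitl, the stem cell factor of the bone marrow niche, was 104, 107 and 138 CPM in the controls and 28.8, 32.1 and 29.8 CPM in the knockout libraries (log2 fold change -1.94, SE 0.13, adjusted p = 0.000141). Lif, an IL-6 family cytokine, rose from 7.48 ± 0.705 to 15.2 ± 0.937 CPM (log2 fold change 1.02, adjusted p = 0.0027). For none of these 3 genes did the genotypes overlap, and each of the calls held in all 13 alternatives.

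Osteoclasts are the bone cells that CSF1 helps to form. Of 8 osteoclast markers tested, 0 were called in either direction by edgeR and limma-voom, DESeq2 called 1 of 11 higher, and 3 of the 8 were higher in edgeR at an unadjusted p under 0.05. The summed level of the 11 listed markers was 311 to 345 CPM in the controls and 373 to 404 CPM in the knockout libraries, without overlap. Atp6v0d2 had the largest difference in CPM among them, with means of 51.0 CPM in the controls and 87.6 CPM in the knockout libraries. Its genotypes overlapped and it was not called (log2 fold change 0.78, adjusted p = 0.107). The tested markers differed in direction, 5 with a log2 fold change above 0 and 3 below 0. Ctsk, the collagen-degrading protease of osteoclasts, had a log2 fold change of 0.32 (adjusted p = 0.226), and Tnfrsf11a, the receptor for RANKL, one of 0.26 (adjusted p = 0.122), both separate and higher in each knockout library. Nfatc1, the transcription factor that drives osteoclast formation, stood at 79.5 and 62.7 CPM and was lower in each knockout library than in any control library (log2 fold change -0.34, adjusted p = 0.255). Acp5, which encodes TRAP, stood at 5.95 and 6.78 CPM, and Calcr, the calcitonin receptor of mature osteoclasts, had at most 5 reads in any library.

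For each of the 6 tested genes, the 3 genes with the most similar profile were found by the root mean square difference of log2 CPM, each centred on its mean, over the 6 libraries. The nearest to Csf1 were Snx7 (0.0498), Smyd3 (0.0520) and Pde10a (0.0543), and the nearest to Csf2ra were Acot9 (0.0222), Slc2a1 (0.0241) and Tes (0.0333). Csf1r was nearest to Pbx2 (0.0226), Triqk (0.0257) and Sh3pxd2a (0.0276). Il34 was nearest to Plscr1 (0.0317), Anapc11 (0.0336) and Pccb (0.0350), Csf2rb to Fbxo28 (0.0153), Smpdl3a (0.0181) and Atg3 (0.0196), and Csf3r to Snx13 (0.0381), Kdm4c (0.0405) and Pggt1b (0.0487). None of these neighbours is another gene of the family.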

How the data were processed

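RNA from MSCs of both genotypes was selected for poly(A), sequenced in read pairs and mapped by the authors to mm10 with HISAT2. The deposited values are raw counts per gene, which the authors did not normalize, and how reads were assigned to genes (tool, gene models, strand) is not given in the sources used here. Of 20163 rows, 92 repeated an Ensembl ID and 20071 IDs were used. Gene positions and overlaps came from GENCODE M21.

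Groups and replicate numbers followed the sample titles. The main test was the quasi-likelihood test of edgeR 4.0.16 in R 4.3.3 over all genes, after filterByExpr and TMM and without covariates, with Benjamini-Hochberg adjustment. It was also run on simulated counts, with larger changes than those of the 6 tested genes and no library that stood apart. That run therefore says nothing about how firm their calls are. DESeq2 1.42.0 (the study's tool, fitted without the filter, so that its counts per list can include genes that edgeR did not test), limma-voom (limma 3.58.1), other scaling and filters, a replicate block and leaving out each library were alternatives. The 8 genes and the gene lists were chosen with earlier results of these data known. Genes named beyond the 8 were Csf2rb2, Pcif1, the 3 nearest profiles per gene (at least 1 CPM, prior count 2), and up to 4 called genes with the smallest p per list, and list genes named for their role although not called were chosen after their values were seen. Intervals cover 95%. Counting limits do not allow for PCR duplicates.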

Additional observations from a re-analysis of the deposited data

How the results depend on the processing

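Csf1 kept its direction and its call in all 13 alternatives, and Csf2rb and Csf3r kept their direction without a call in 14 and 13. Leaving out 1 library at a time gave log2 fold changes of -0.29 to 0.017 for Il34, -0.30 to -0.21 for Csf1r, 0.41 to 0.49 for Csf2ra, 0.02 to 0.26 for Csf3r and -0.0080 to 0.28 for Csf2rb2. The calls gained by Il34, Csf1r and Csf2rb2 were all without control replicate 3. The counts over all genes moved more: 324 to 1447 genes were called lower (620 with all libraries) and 148 to 1544 higher (396 with all libraries). Without control replicate 3 they were 1447 and 1544, without knockout replicates 1, 2 and 3 they were 324 and 148, 349 and 172, and 328 and 149, and without control replicate 2 they were 440 and 196. Fewer libraries entered those fits, and why they differ was not otherwise tested. The replicate numbers of the labels share only a number: the deviations of same-numbered libraries correlated at 0.0554, -0.045 and -0.013, and replicate 1 alone correlated best with its own number. With a replicate block, 503 genes were called lower and 267 higher, Csf2ra had a log2 fold change of 0.43 (adjusted p = 0.0617) and no other call among the 6 tested genes changed. Of the list genes, Fosl1, S100a8, Zbtb46, Vcam1 and Pdgfra were also not called with it (adjusted p 0.0509 to 0.0838). DESeq2 called 830 lower and 593 higher. Of 404 recomputed log2 fold changes of single genes, 338 kept their direction and side of the threshold, 61 lost a call, 3 gained one and 2 reversed (Il34 and Csf2rb2 without control replicate 1). Of 26 recomputed counts, 17 stayed within 1.5 times the value with all libraries, and of 48 medians of lists 6 moved by more than the spread between libraries. Depth limits Csf3, with 1 read in all.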
